A study of Mus musculus with 15 samples.

Results

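The binding of the TTP-AA mutant to RNA was followed from resting macrophages to 1 h of lipopolysaccharide (LPS) by individual-nucleotide resolution crosslinking and immunoprecipitation (iCLIP). The comparison used the pooled list of crosslink sites at 0 h, summed by the authors over 2 libraries, and the pooled list at 1 h, summed over 3 libraries. The 0 h list held 16353 sites and the 1 h list 86497, which made 95901 distinct nucleotides, 6949 of them present in both lists, of 123142 distinct sites in the 6 lists of the series. All cells were bone marrow-derived macrophages of TTP-deficient C57BL/6 mice that had been immortalised with the hcmyc and hRasG12V oncogenes and carried a retroviral tetracycline-inducible GFP-TTP-AA coding sequence, without the TTP 3′UTR. Expression was switched on with doxycycline for 6 h at 1 µg/ml in both groups, and the 1 h group additionally received 1 µg/ml LPS. TTP-AA therefore came from an introduced promoter and not from the Zfp36 locus, and the labels do not say that the libraries of a group came from separate cultures.

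Tristetraprolin (TTP, gene symbol Zfp36) is a CCCH zinc-finger protein that binds AU-rich elements in the 3′UTR of short-lived mRNAs, classically through UAUUUAU, and recruits the deadenylation and decay machinery. Its best known targets in macrophages are mRNAs for cytokines and chemokines whose transcription starts within minutes of the recognition of LPS by Toll-like receptor 4. The kinase MK2, which acts downstream of p38, phosphorylates TTP on a pair of serines, and 14-3-3 proteins then bind it and restrain its decay activity. In TTP-AA both serines are alanines, so that this restraint cannot be set.

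In iCLIP, UV light couples the protein to RNA, the reverse transcriptase stops at the coupled nucleotide, and each stop with its own random barcode is counted as 1 cDNA. A site is a nucleotide that passed the peak calling of the authors, and its value is the number of unique cDNAs there. The 0 h list summed to 32617 cDNAs and the 1 h list to 174397, or 16309 and 58132 cDNAs per pooled library. Sites with a single cDNA made up 68.5% of the 0 h list and 72.1% of the 1 h list, and the strongest site held 108 and 490 cDNAs. A chromosome 17 locus that takes up ribosomal RNA reads (chr17:39843013-39848788) held 11.2% and 10.4% of the cDNAs. The amount of each transcript was not measured in these files, so that a transcript that became more abundant and one that was bound more often per molecule cannot be told apart here. Depth, number of libraries and peak calling (the 1 h list carries a remark on region handling in its header that the 0 h list lacks) also moved with time, and their part in the differences was not tested. With 1 pooled list a time point there is no spread between replicates, so no p-value is given, and every interval is a 95% interval that covers counting error only.

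The sequences around the strongest sites show the kind of element that was bound at each time. Each line gives the nucleotide with most cDNAs of a gene in the named list with 14 nt on either side, 5′ to 3′, read from the GENCODE M21 transcripts on GRCm38 (mm10), and capitals mark the pentamer AUUUA. Where nucleotides tied, as in Mdm2 and Pfn1 at 0 h, the one with the lowest genome coordinate is shown. Cxcl2 and Tnf stand for the genes gained at 1 h, Mdm2 and Ybx3 for genes bound at both times, Actb and Pfn1 for bound cytoskeletal genes whose windows hold no AUUUA, and Hist1h4d and Hist1h3c for the histone genes that led the resting list.
Cxcl2, 1 h, chr5:90905878-90905906, plus strand: aaguggacacAUUUAUUUAuucauguauu
Tnf, 1 h, chr17:35199649-35199677, minus strand: uugcuuaugaauguAUUUAuuuggaaggc
Mdm2, 0 h, chr10:117688914-117688942, minus strand: gcauugauguuAUUUAuuugcaaauaaau
Mdm2, 1 h, chr10:117689809-117689837, minus strand: uaauaagaacAUUUAAUUUAUUUAguguc
Ybx3, 0 h, chr6:131364956-131364984, minus strand: uuaagaagaaauuuuaugcccuuAUUUAu
Ybx3, 1 h, chr6:131364947-131364975, minus strand: aauuuuaugcccuuAUUUAuuccuaggau
Actb, 1 h, chr5:142903263-142903291, minus strand: uuuuguuuuuaauuucugaauggcccagg
Pfn1, 0 h, chr11:70651876-70651904, minus strand: guuuuuuggucuuuuuuuuuuuuuuuuuu
Hist1h4d, 0 h, chr13:23581907-23581935, plus strand: cggcuaaacguacucAUUUAuuuuucuuc
Hist1h3c, 0 h, chr13:23745059-23745087, minus strand: augguuuuuaugcuAUUUAaaaaaaggcu
All of these sites lie in a 3′UTR, and the window of Hist1h4d, whose site is 8 nt after the stop codon, begins in the coding sequence. Over every position of the 3′UTRs of 21028 genes, 4.53% of windows of 29 nt hold AUUUA. The 2 printed histone windows hold AUUUA, but the strongest windows of Hist1h4a, Hist1h4b, Hist1h4j and Hist2h2ac hold none. No 3′UTR cDNA of those genes lay within 20 nt of AUUUA at either time. A pentamer in a window is a description of the sequence and not a measured contact.

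To see where TTP-AA bound, each site was assigned to 1 region, with 3′UTRs taking priority over coding exons, 5′UTRs, non-coding exons and introns. At 0 h 6008 of the cDNAs lay in 3′UTRs, which is 18.4% (95% Wilson interval 18.0 to 18.8). At 1 h 93510 did, which is 53.6% (53.4 to 53.9), an increase of 35.2 percentage points (95% Newcombe interval 34.7 to 35.7). The shares of the other compartments fell, intergenic cDNAs from 41.3% to 21.8%, non-coding exons from 23.9% to 14.5% and introns from 15.3% to 7.37%. Coding sequence rose from 0.601% to 1.97% and 5′UTRs moved from 0.509% to 0.687%.
Within the exons of mRNAs the balance moved far less. Of the cDNAs in 3′UTR, coding sequence or 5′UTR, 94.3% (93.7 to 94.9) were in 3′UTRs at 0 h and 95.3% (95.1 to 95.4) at 1 h, a difference of 0.960 points (0.402 to 1.57).

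**Figure D1:**
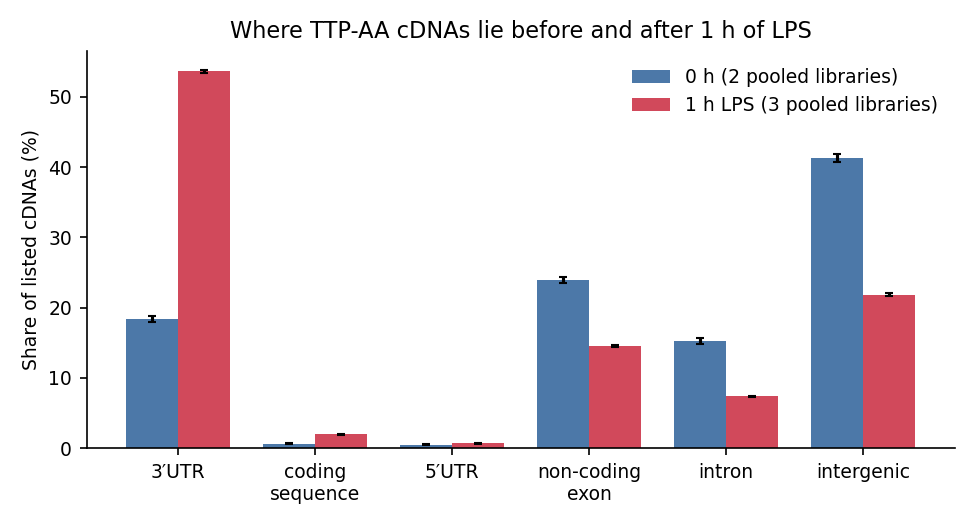
Share of listed cDNAs (%) in each region for TTP-AA at 0 h (blue) and after 1 h of LPS (red), with 95% Wilson intervals as error bars, which cover counting error only. The 3′UTR bar goes from 18.4% to 53.6%, whereas the intergenic, non-coding and intron bars are lower at 1 h.

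The question of which genes gained, kept or lost TTP-AA was first answered by presence, counting a gene as listed when its 3′UTR held at least 1 cDNA. At 0 h 894 genes were listed and at 1 h 4468. Of the resting genes 792 (88.6%) were kept and 102 (11.4%) were lost, and 3676 genes were gained. When the 1 h list was scaled down to the 32617 cDNAs of the 0 h list by the closed rarefaction formula, 2583 genes were gained, 709 kept and 185 lost, so the number of lost genes depended on depth by more than 1.5 times. The kept genes held 39.0% of the 3′UTR cDNAs at 1 h and the gained genes 61.0%. The lost genes were weakly bound at rest: they held 320 cDNAs in all, with a median of 3, and 16 of them had 5 or more cDNAs.
Among the 20 lost genes with most cDNAs, named after their values were seen, were 6 histone genes, led by Hist1h4b with 24 cDNAs, and Tsc22d4 with 9 cDNAs. Gained and kept genes carried AUUUA in similar proportion. At least 1 AUUUA was present in the longest 3′UTR of 87.2% of kept, 84.8% of gained and 77.5% of lost genes, compared with 65.2% of all 21028 genes with a 3′UTR. The median 3′UTR length was 1790 nt for kept and 1459 nt for gained genes, and 961 nt for all. Per 1000 nt of 3′UTR there were 2.02 AUUUA in kept, 2.11 in gained and 1.84 in lost genes, beside 1.93 for all. By density the bound genes were thus close to all genes.

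To compare levels, 2052 genes with at least 10 3′UTR cDNAs over both lists were tested by the ratio of their shares of all listed cDNAs, 1 h over 0 h, with counts under 3 set to 3. A gene was called when the ratio was at least 2 or at most 0.5 and the exact interval of the ratio of the listed counts excluded 1. By this rule 431 genes (21.0%) were called higher and 46 (2.24%) lower. Since 3′UTR cDNAs as a whole rose 2.91-fold as a share of the list (1.54 on the log2 scale), the calls were repeated with the share of 3′UTR cDNAs, on which 59 genes (2.88%) were higher and 272 (13.3%) lower. All 59 were among the 431, and all 46 among the 272. The median log2 ratio of the tested genes was 0.17 on the first scale and -1.38 on the second. Of the 2052 tested genes 1370 had no 3′UTR cDNA at 0 h, and for those the ratio is a lower bound set against 3 cDNAs over the group.
Of the 59 genes higher on both scales, 34 belonged to at least 1 of the gene lists described below, and of the 46 lower genes 10 did. The share of all tested genes in these lists is not given here. Of the 59, 50 had no cDNA at 0 h, beside 1370 of the 2052 tested genes. AUUUA was held by 56 of the 59 (94.9%) and 31 of the 46 (67.4%), beside 89.3% of all tested genes. Of the 46 lower genes, 7 were replication-dependent histone genes. In spite of the deeper list, 13 of the 46 had fewer cDNAs at 1 h than at 0 h, and 29 had fewer per pooled library.

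**Figure D2:**
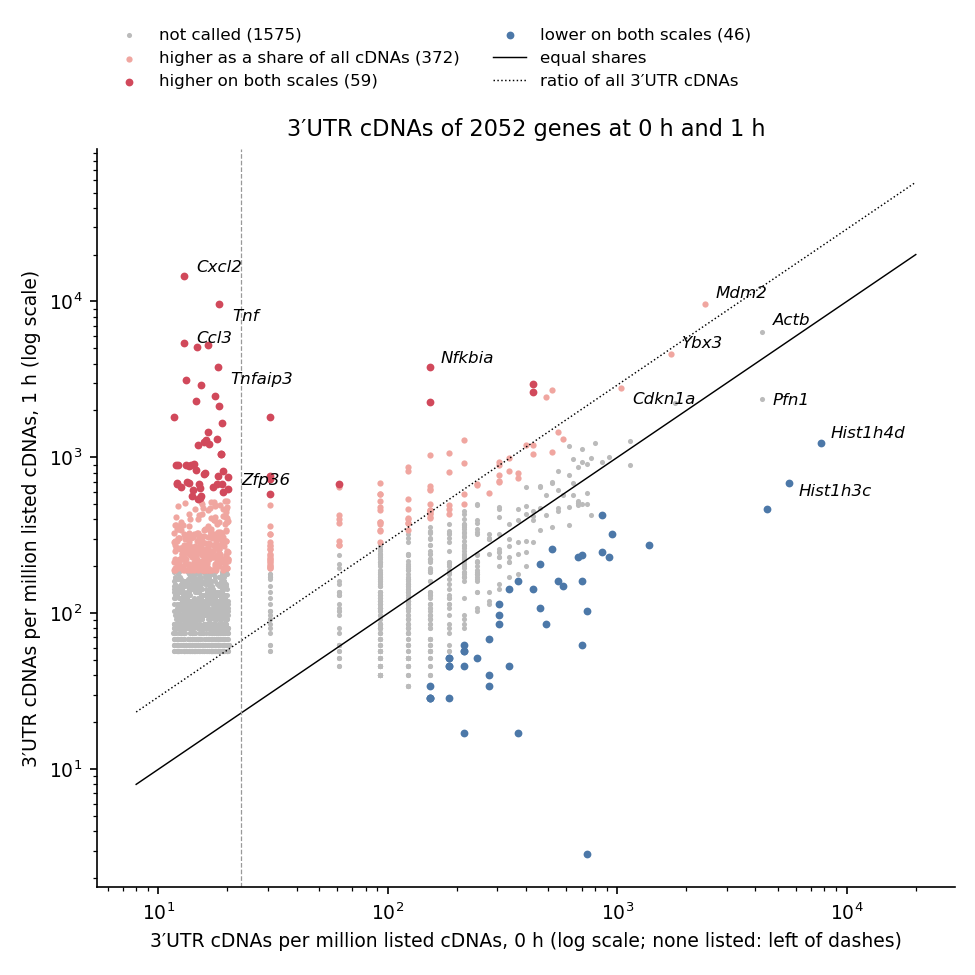
3′UTR cDNAs as CPM of all listed cDNAs at 0 h (x axis, log scale) and 1 h (y axis, log scale) for the 2052 tested genes, with genes without a cDNA at 0 h spread left of the dashed line and the gene without one at 1 h (Hist1h4b) drawn at the level of 0.5 cDNAs. Cxcl2, Tnf and Ccl3 lie at the upper left, Mdm2 lies at the right just above the dotted line of the 2.91-fold rise of all 3′UTR cDNAs, and Hist1h4d, Hist1h3c and Hist1h4a lie below the solid line of equal shares.

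Chemokine mRNAs, which encode the proteins that attract leukocytes to infected tissue, had the highest median ratio of the 15 gene lists. Of 21 chemokine genes 8 were listed and tested, and 6 were called higher on either scale, against 21.0% of all tested genes on the first. Their median log2 ratio was 5.44, beside 0.17 for all tested genes. Cxcl2, which encodes a neutrophil attractant, had no 3′UTR cDNA at 0 h and 2536 at 1 h, the most of any gene, spread over 299 sites, a share at least 158-fold higher than that of 3 cDNAs at 0 h. Ccl3, which encodes the macrophage inflammatory protein 1 alpha, went from 0 to 938 cDNAs and Ccl4, its close relative, from 0 to 886. Ccl2, the monocyte attractant, went from 0 to 913 cDNAs and Cxcl10, an interferon-inducible T cell attractant, from 0 to 549. The resting list thus held no 3′UTR site in any of these 5 genes, and the only chemokine gene with sites at both times was Ccl9 with 13 and 113 cDNAs, which was not called and was picked after its values were seen.

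Cytokine genes were listed at 1 h alone. Of 25 genes of this list 12 had 3′UTR cDNAs, none of them with a cDNA at 0 h, and of the 9 tested 6 were called higher, 4 of them also on the scale of 3′UTR cDNAs, beside 21.0% and 2.88% of all tested genes. Their median log2 ratio was 1.67. Tnf, the early inflammatory cytokine and classical TTP target, went from 0 to 1673 cDNAs on 238 sites, at least 104-fold. Tnfsf9, a co-stimulatory ligand of the same family, went from 0 to 429 and Gdf15, a stress cytokine, from 0 to 288 cDNAs. Csf1, the macrophage growth factor, went from 0 to 144 cDNAs. The other 2 higher genes, Il1b with 51 and Osm with 34 cDNAs at 1 h, were named after their values were seen.

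Genes of the list of NF-kB inhibitors and feedback regulators, many but not all of which restrain the LPS response, were also called in this direction. Of 24 genes 17 were listed, 16 of them gained and 1 kept. Of the 9 tested 6 were higher on either scale, beside 21.0% and 2.88% of all tested genes, with a median log2 ratio of 3.03. Nfkbia, which encodes the inhibitor that holds NF-kB in the cytoplasm, was the kept gene and went from 5 to 662 cDNAs, a ratio of 24.8 (10.6 to 76.5). Tnfaip3, the ubiquitin-editing enzyme A20, went from 0 to 664 cDNAs, Nfkbiz from 0 to 375 and Ier3 from 0 to 159. Socs3, which restrains cytokine receptor signalling, went from 0 to 105 cDNAs and was named after its values were seen.
The signalling chain upstream of these genes had few calls. Of 38 genes of the Toll-like receptor 4 and NF-kB pathway 24 were listed and 15 tested. Of the tested genes 2 were higher (13.3%), beside 21.0% of all tested genes, with a median log2 ratio of -0.00364. Of the 24 listed genes 21 had no cDNA at 0 h, so that most of these ratios are lower bounds, and their summed cDNAs went from 9 to 328, a ratio of shares of 6.82 beside 2.91 for all 3′UTR cDNAs. The 2 higher genes were Rel, an NF-kB subunit with 0 and 44 cDNAs, and Cd14, the LPS co-receptor with 0 and 39 cDNAs. Neither was higher on the scale of 3′UTR cDNAs, where their ratios of 0.942 and 0.835 fell below 1. Nfkb1 had 0 and 25 cDNAs and Traf3 0 and 26, below the fold needed from a floor of 3.

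Immediate early genes, the transcription factors and enzymes that are induced without new protein synthesis, were mixed. Of the 15 tested 7 were higher and 4 on both scales, beside 21.0% and 2.88% of all tested genes. These 4 were Junb with 0 and 316 cDNAs, Klf6 with 0 and 252, Jun with 0 and 157 and Maff with 0 and 153. Of the 4 tested phosphatases that inactivate MAP kinases 1 was higher on both scales, Dusp1, which dephosphorylates p38 and went from 0 to 214 cDNAs. Dusp2 and Dusp4 had 30 and 22 cDNAs at 1 h after none at 0 h, and Dusp3 had 5 and 28, a ratio of 1.05 (0.399 to 3.47).
The list of mainly secreted and surface macrophage proteins had the greatest share of genes called higher. It also holds intracellular proteins such as Nlrp3. The list was drawn up with earlier results of these data known. Its members Lpl, Spp1, Plau, Icam1, Sdc4, B2m and Nlrp3 are among the paper's top 3′UTR targets, ranked by crosslinks at 1 h of LPS. The share of calls therefore describes the list and does not test it. Of the 21 tested 18 were higher, 7 of them on both scales, beside 21.0% and 2.88% of all tested genes. Nlrp3, the inflammasome sensor, went from 0 to 505 cDNAs and Icam1, an adhesion receptor, from 0 to 399. Lpl (lipoprotein lipase) went from 14 to 516 cDNAs, a ratio of 6.89 (4.07 to 12.7), and Spp1 (osteopontin) from 14 to 457, a ratio of 6.11 (3.60 to 11.3). Plau, the urokinase plasminogen activator, went from 17 to 475, a ratio of 5.23 (3.23 to 9.05), and was not called on the scale of 3′UTR cDNAs.

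**Figure D3:**
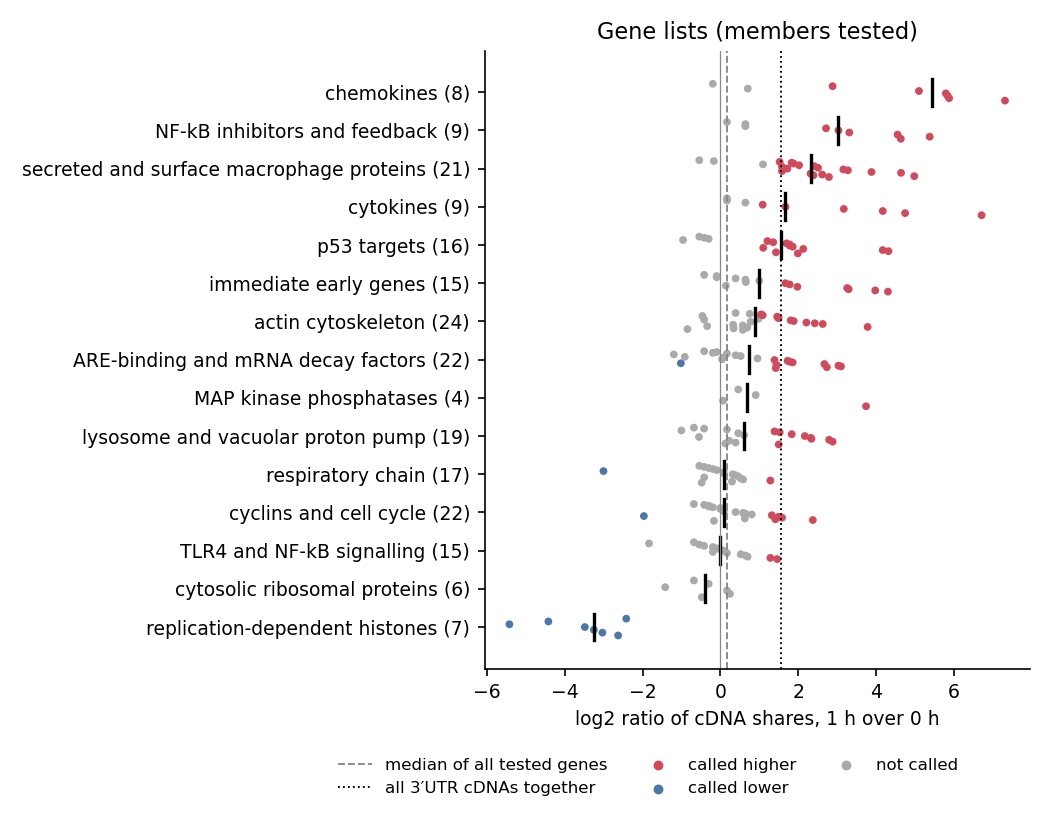
log2 ratio of cDNA shares, 1 h over 0 h, for the tested members of each gene list (points, red called higher, blue called lower, grey not called; counts under 3 set to 3), with the list median as a black bar. The chemokine and NF-kB inhibitor medians lie at 5.44 and 3.03, the cell cycle, respiratory chain and signalling medians lie by the dashed line of all tested genes at 0.17, and all 7 histone genes lie below 0.

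Of the genes that TTP-AA bound at both times, Mdm2, Actb and Ybx3 had most cDNAs at 1 h, whereas histone genes, described below, led the resting list. Mdm2, which encodes the ubiquitin ligase that degrades p53, had 79 cDNAs at 0 h and 1674 at 1 h, on 50 and 413 sites. Its share rose 3.96-fold (3.16 to 5.03), and relative to all 3′UTR cDNAs it was 1.36 and not called. Of the 16 tested p53 target genes 12 (75%) were higher and 2 on both scales, beside 21.0% and 2.88% of all tested genes. The latter were Plk2, a stress kinase with 1 and 319 cDNAs (95% interval of the ratio 10.6 to 2364), and Gdf15. Cdkn1a, the cell cycle inhibitor p21, had 34 and 488 cDNAs. Its ratio was 2.68 (1.89 to 3.92), which became 0.922 on the scale of 3′UTR cDNAs.
Ybx3, a cold shock domain RNA-binding protein, rose from 56 to 801 cDNAs, by a ratio of 2.68 (2.04 to 3.57) that became 0.919 on the second scale. In the list of AU-rich element binding and mRNA decay factors, to which it belongs, 10 of 22 tested genes (45.5%) were higher, against 21.0% of all, 1 was lower and 2 were higher on both scales. Those 2 were Zc3h12c, a relative of the endonuclease regnase, with 0 and 137 cDNAs, and Zfp36 itself. Zfp36 had no 3′UTR cDNA at 0 h and 131 at 1 h, and no cDNA in its coding sequence at 0 h and 31 at 1 h. The introduced transcript carries the coding sequence only, and whether coding cDNAs came from it or from the endogenous locus cannot be told apart. The lower gene, named after its values were seen, was Zfp36l2, a TTP family member, with 28 and 74 cDNAs, a ratio of 0.494 (0.316 to 0.793). Ybx1 rose from 4 to 142 cDNAs, by a ratio of 6.64 (2.54 to 24.7) that was not called on the second scale, at 2.28.

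Among actin cytoskeleton genes, of which 11 were kept, 18 gained and 1 lost, the 3 with most cDNAs hold no AUUUA or 1 in their longest 3′UTR. Actb had 140 cDNAs at 0 h and 1116 at 1 h, a ratio of 1.49 (1.25 to 1.79), which is under the fold for a call. Pfn1, which encodes the actin monomer binding protein profilin, had 139 and 413 cDNAs. Its ratio of 0.556 (0.457 to 0.678) was not called, and the 0.191 on the scale of 3′UTR cDNAs was called lower. Tmsb4x, which encodes the actin-sequestering thymosin beta 4, had 58 and 392 cDNAs, a ratio of 1.26 (0.957 to 1.70), which was called lower at 0.434 on the second scale. Actr2 had 23 and 198 cDNAs, a ratio of 1.61 (1.04 to 2.60). The longest 3′UTRs of Pfn1 and Tmsb4x hold no AUUUA, so no cDNA of these genes lay within 20 nt of it at either time. That of Actb holds 1, and none of its cDNAs at 0 h and 4.93% at 1 h lay within 20 nt of AUUUA. In Actr2 65.2% of cDNAs at 0 h and 33.8% at 1 h did. Of the 24 tested cytoskeletal genes 11 (45.8%) were higher, against 21.0% of all tested genes, 2 of them on both scales, and 6 were lower on the second, where 13.3% of all were.
Cell cycle, respiratory chain and ribosomal protein genes had medians below that of all tested genes, and most of their listed members had no cDNA at rest. Of 22 tested cell cycle genes 5 were higher (22.7%) and 1 lower (4.55%), beside 21.0% and 2.24% of all tested genes. Their median log2 ratio was 0.08, and Ccnd1 (cyclin D1) had 5 and 71 cDNAs, Cdk1 8 and 66, Mcm2 0 and 83 and Rrm2 21 and 100. On the scale of 3′UTR cDNAs neither Ccnd1 nor Mcm2 was called and Rrm2 was lower. Of 17 respiratory chain genes 1 was higher (Ndufs1, 0 and 39 cDNAs) and 1 lower (Ndufa4, 9 and 6 cDNAs), while Cox7a2 had 23 and 88, Uqcrfs1 7 and 46 and Atp5g3 3 and 24. On the second scale Ndufs1 was not called and Cox7a2 was lower. Of 6 tested genes of cytosolic ribosomal proteins none was called on the first scale. On the second 2 were lower, beside 13.3% of all tested genes, with 6 and 23 cDNAs for Rpl39 and 5 and 10 for Rps3. Rps27l had 0 and 19 cDNAs and Rpl13a 0 and 18. The lysosomal list had a greater share of calls than all tested genes. Of its 19 tested genes 9 (47.4%) were higher and 2 of them on both scales, 1 of which was Lamp2, a lysosomal membrane protein with 0 and 118 cDNAs. Atp6v0b, a proton pump subunit, had 14 and 211, a ratio of 2.82 (1.64 to 5.24), Atp6v1a 30 and 175 and Ctsb 17 and 119. On the second scale Atp6v0b was not called, at 0.968, and Atp6v1a and Ctsb were lower, at 0.375 and 0.450.

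Replication-dependent histone genes showed the opposite of the inflammatory genes. Their mRNAs end in a stem-loop instead of a poly(A) tail and have short 3′UTRs. Of 68 histone genes 18 were listed at either time, 8 kept, 3 gained and 7 lost, and all 7 tested were lower on either scale, beside 2.24% of all tested genes. Their summed 3′UTR cDNAs went from 683 at 0 h to 452 at 1 h, a ratio of shares of 0.124. Hist1h4d had 251 and 217 cDNAs, a ratio of 0.162 (0.134 to 0.195), Hist1h3c 182 and 119, a ratio of 0.122 (0.0962 to 0.155), and Hist1h4a 146 and 82, a ratio of 0.105 (0.0791 to 0.139). Hist1h4b had 24 cDNAs at 0 h and none at 1 h, for which a ratio of 0.0234 against 3 cDNAs is an upper bound.
In the 2 leading genes the bound position stayed in place. The strongest nucleotide of Hist1h4d was 8 nt after the stop codon at both times, with 42 and 30 cDNAs, and that of Hist1h3c was 14 nt after it at both times, with 31 and 28 cDNAs. In Hist1h4a it was 21 nt after the stop codon at 0 h and 14 nt at 1 h. All 1 h cDNAs of both genes lay within 15 nt of a 0 h site. Histone mRNAs belong to a family of near-identical copies, and the reads of 1 copy can be counted under another.
The other genes among the 10 with the lowest ratios had few cDNAs. They were Hist2h2ac (12 and 3 cDNAs), Lrrc41 (7 and 3), Hist1h4j (23 and 11), Ndufa4 (9 and 6), Wdr89 (11 and 8), Mgst3 (24 and 18) and Tmem245 (9 and 7). Among the 10 genes with most cDNAs at rest were also Rnf225 and Lars2. The strongest window of Rnf225, with 45 and 48 cDNAs, was found letter for letter in 3 other annotated genes, all of them snRNA genes, so its reads are uncertain. Lars2, a mitochondrial leucyl-tRNA synthetase, had 37 and 223 cDNAs and none within 20 nt of AUUUA, which its longest 3′UTR lacks. Its strongest 0 h window was also found in 1 other annotated gene, AA474408, so its reads are uncertain as well. The ratio of Lars2, 1.13, was not called and became lower, at 0.387, on the second scale.

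At the level of single nucleotides, the 3′UTRs held 4339 resting sites and 61183 sites at 1 h. Of the resting sites 3533 (81.4%, 80.2 to 82.6) had a 1 h 3′UTR site within 15 nt on the same strand and count as kept, and 806 (18.6%) as lost. Of the 1 h sites 53033 (86.7%, 86.4 to 86.9) had no 0 h site within 15 nt and count as gained. Lost sites held 1.10 cDNAs on average and none over 4, whereas kept sites held 1.45 at 0 h. Gained sites were not only those of newly listed genes: 25.4% of them lay in 3′UTRs that already had a site at rest.
Retention differed by region. It was 89.2% in 5′UTRs (102 sites), 83.9% in non-coding exons and 81.5% in 3′UTRs when any 1 h site within 15 nt was accepted, compared with 64.2% in intergenic sequence, 39.2% in coding sequence (125 sites) and 38.7% in introns. Of the 102 5′UTR sites 43 lay in Pabpc1. Of the 2176 non-coding sites at 0 h, 446 lay in Gm42418 and 549 in Gm26917, both in the chromosome 17 locus. The shares were not set against the density of 1 h sites.
In 123 genes with at least 10 3′UTR cDNAs in both lists, a median of 100% of the 0 h cDNAs were kept. A median of 65.2% of their 1 h cDNAs lay within 15 nt of a 0 h site. These genes were picked for cDNAs at both times, and 1 h sites can be dense in them. Mdm2 held 413 sites at 1 h in 1335 nt of 3′UTR and Actb 249 in 683 nt. The 100% was not set against a base for such density and is no evidence of retention beyond it. At 0 h several nucleotides tied for the highest count in 64 of these genes. In the 46 genes with a single strongest nucleotide at both times, it was the same in 10 and within 15 nt in 25, with a median distance of 9 nt. In Ybx3 it moved by 9 nt and in Tmsb4x by 0 nt. Mdm2 had a tie at 0 h, with 4 cDNAs at both 382 and 1282 nt after the stop codon, and its strongest site at 1 h, with 46 cDNAs, was at 387 nt and overlapped AUUUA repeats, as the printed windows show. Of the Mdm2 cDNAs at 1 h 68.3% lay within 15 nt of a 0 h site.

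**Figure D4:**
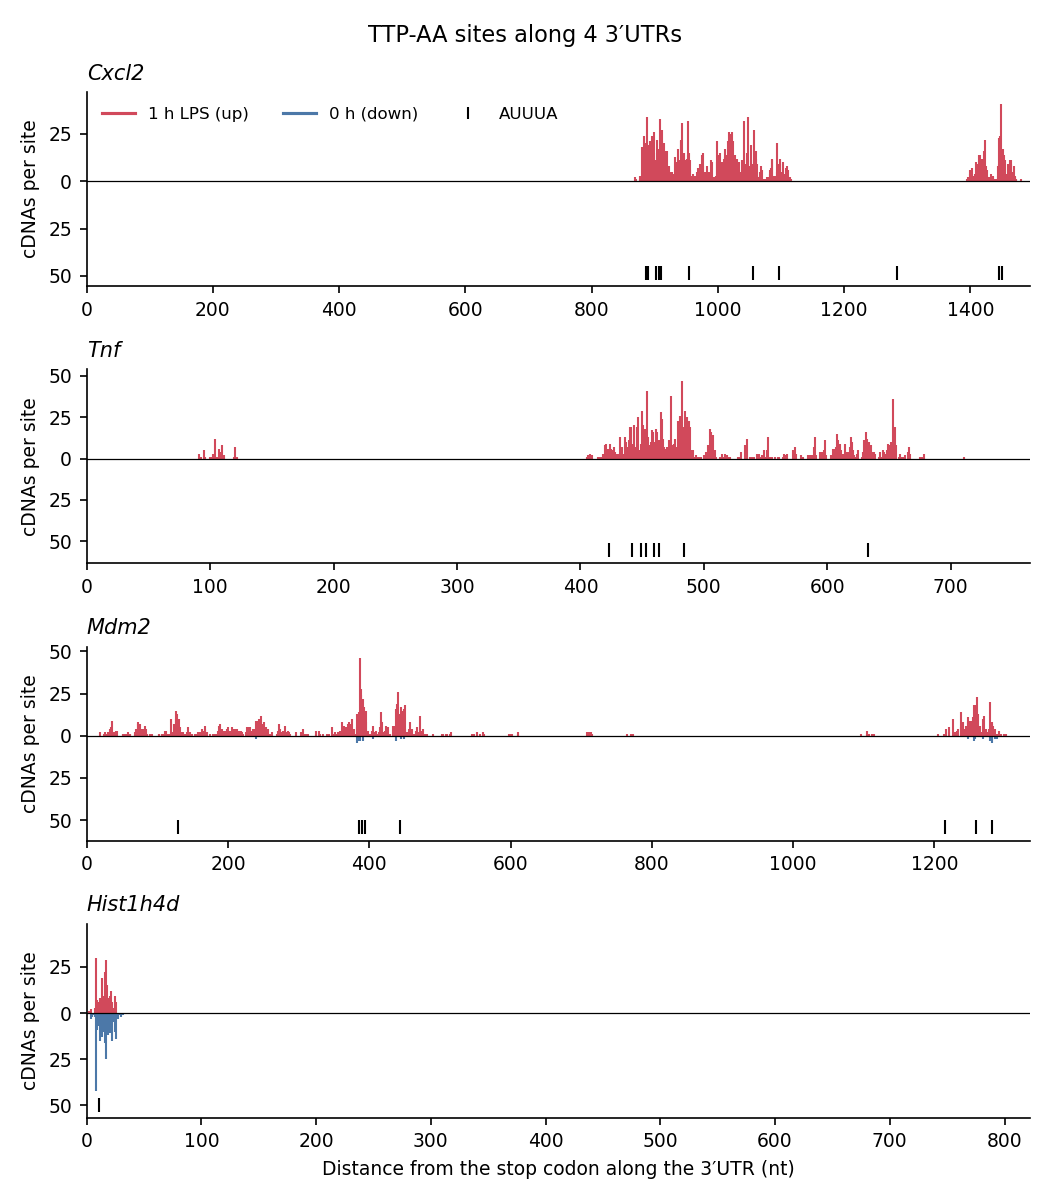
cDNAs per site along the 3′UTRs of Cxcl2, Tnf, Mdm2 and Hist1h4d against the distance from the stop codon (nt), with 1 h upwards in red and 0 h downwards in blue, and AUUUA pentamers as black ticks. Cxcl2 and Tnf have bars only at 1 h, Mdm2 has few bars at 0 h where 1 h bars are tall, and the bars of Hist1h4d lie at the start of the 3′UTR at both times, up to 42 cDNAs at 0 h and 30 at 1 h.

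The sequence around the sites separated lost sites from the rest, whereas the AUUUA share of all 3′UTR sites was close at both times. AUUUA lay wholly within 20 nt of 33.4% (33.0 to 33.8) of gained sites, 37.8% (36.2 to 39.4) of kept 0 h sites and 15.9% (13.5 to 18.6) of lost sites. Over every position of the same 3′UTRs the shares were 7.12%, 6.74% and 7.10%, so that AUUUA was 4.68, 5.60 and 2.24 times as frequent at sites as along these 3′UTRs. The longer UAUUUAU showed the same order, with 15.5% of gained, 16.7% of kept and 4.34% of lost sites, or 13.5, 15.8 and 4.23 times the share of all positions. Runs of 5 U were found at 33.3% of gained, 47.5% of kept and 41.7% of lost sites, and the polyadenylation signal AAUAAA at 4.83%, 10.8% and 14.8%. Both are the reverse of the AUUUA order between gained and lost sites, and motifs that overlap, such as AUUUA in UAUUUAU, were counted each for itself.
Among all pentamers the one found at most gained sites was UAUUU, at 47.5% of them, and at most lost sites UUUUU. The crosslinked base was U at 61.4% of gained, 65.2% of kept and 59.2% of lost sites. Gained sites in genes already listed at rest held AUUUA less often, at 24.3% (23.6 to 25.01), than sites of gained genes, at 36.5% (36.0 to 36.9). The former leave out the neighbourhood of 0 h sites by definition, and of all 1 h sites in these genes 31.1% (30.5 to 31.8) held AUUUA.
At 1 h the share with AUUUA went up with the height of the site. It was 32.1% for sites with 1 cDNA, 40.7% with 2 to 4, 55.2% with 5 to 9 and 63.1% (59.0 to 67.0) for the 561 sites with 10 or more cDNAs, which lay in 88 genes. At 0 h 35 sites held 10 or more cDNAs, and 27 of them were in histone genes. At the gene level 93.0% (90.2 to 95.1) of genes called higher carried AUUUA in the 3′UTR, compared with 67.4% (52.97 to 79.1) of genes called lower and 89.3% of all tested genes.

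**Figure D5:**
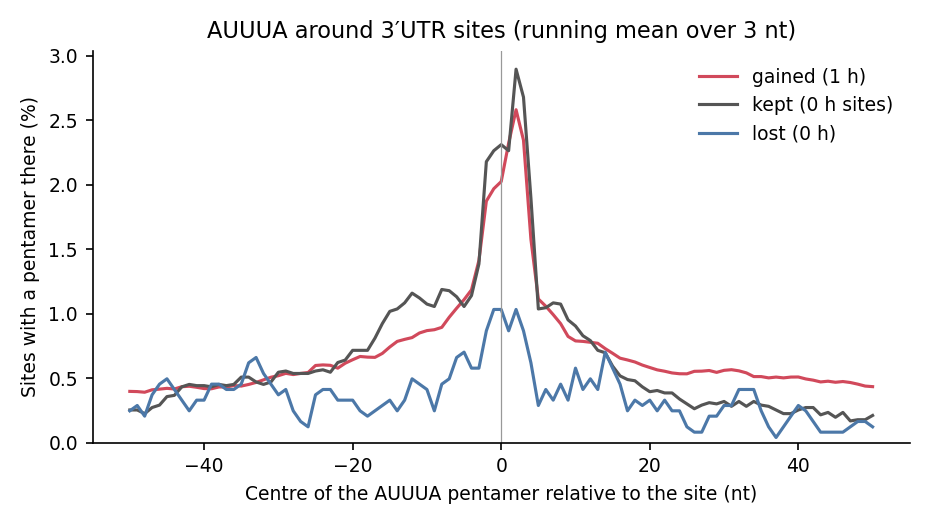
Share of sites (%) with the centre of an AUUUA pentamer at each distance (nt) from the crosslinked nucleotide, for gained sites (red), kept 0 h sites (grey) and lost sites (blue), as a running mean over 3 nt. All 3 curves peak within 2 nt of the site, that of lost sites lowest, and before the running mean the peaks were 3.40%, 3.51% and 1.61%.

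The position along the 3′UTR also changed. In genes with a 3′UTR of at least 300 nt, sites were 9.36 (8.72 to 10.0) times as dense in the last 100 nt as in the rest at 0 h (28.9% of the sites in 792 genes) and 3.78 (3.69 to 3.87) times at 1 h (15.4% of the sites in 3946 genes). Lost sites had a ratio of 9.41 (7.89 to 11.2), kept 0 h sites 8.95 (8.28 to 9.66) and gained sites 3.23 (3.15 to 3.32). Within the genes listed at both times the ratio was 9.27 (8.62 to 9.96) for 0 h sites and 4.55 (4.38 to 4.72) for all 1 h sites. The difference between the times was thus also there within genes of 1 class. Gained sites of these genes had 2.55 (2.41 to 2.71), but by definition they leave out the neighbourhood of 0 h sites. The first 100 nt had a ratio of 1.38 (1.20 to 1.59) at 0 h and 1.09 (1.05 to 1.13) at 1 h.
The lower AUUUA share of lost sites was seen outside the 3′ end. Away from the last 100 nt it was 12.1% (9.59 to 15.2) for lost and 34.2% (33.8 to 34.7) for gained sites, and within them 27.3% (21.2 to 34.3) and 32.3% (31.1 to 33.4). AAUAAA was near 30.1% of lost sites and 10.6% of gained sites within the last 100 nt. Over all sites of each list the AUUUA shares at 0 h and 1 h were 33.0% and 34.8% within the last 100 nt. In the rest of the 3′UTR they were 34.1% and 35.2%.

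Outside 3′UTRs, several abundant small non-coding RNAs had fewer cDNAs at 1 h than at 0 h in spite of the deeper list. The Y RNA Rny3 had 949 cDNAs at 0 h and 850 at 1 h, a ratio of 0.168 (0.153 to 0.184). Rny1 had 532 and 499, a ratio of 0.175 (0.155 to 0.199), and the 7SK RNA Rn7sk 358 and 290, a ratio of 0.152 (0.129 to 0.177). Spliceosomal snRNAs together went from 4.11% to 1.36% of cDNAs. The nuclear long non-coding RNA Malat1 did the opposite, with 35 cDNAs on 27 sites at 0 h and 1183 cDNAs on 690 sites at 1 h, a ratio of 6.32 (4.52 to 9.12).
In the ribosomal RNA-like locus Gm42418 went from 2249 to 9894 cDNAs, a ratio of 0.823 (0.786 to 0.862), so that its share moved little. Mitochondrial rRNA went from 0.766% to 0.556%. Among introns the strongest at rest, a site cluster in Pde1c, fell from 400 to 154 cDNAs on 10 and 9 sites, a ratio of 0.0720 (0.0594 to 0.0869).
In coding sequence 55 genes were listed at 0 h and 634 at 1 h, 24 of them at both times. Fth1, the ferritin heavy chain, went from 11 to 300 cDNAs, by a ratio of 5.10 (2.81 to 10.3). Ccl2 coding cDNAs numbered 0 and 68. These and the other genes of this paragraph and the one before were picked after their values were seen. Of the 634 genes 391 (61.7%) also had 3′UTR cDNAs at 1 h. In 5′UTRs Pabpc1, the cytoplasmic poly(A)-binding protein, held 79 of the 166 cDNAs at 0 h and 148 of 1198 at 1 h, a ratio of 0.350 (0.265 to 0.466).

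As a check of the cell type, 7 of 10 macrophage markers had 3′UTR cDNAs at 1 h, with 343 cDNAs in all, led by Lyz2 with 143 and Itgam with 85, whereas at 0 h only Spi1 did, with 4. Of the markers of T cells, B cells, neutrophils, fibroblasts and endothelial cells Cdh5 was the single gene listed, with 3 cDNAs at 1 h. A gene that is not in the lists may still be expressed, since only bound RNA is counted.

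The same hour in cells with wild-type GFP-TTP, from lists of 33587 cDNAs (2 libraries) and 99263 cDNAs (4 libraries), gave other values. There 366 genes were kept, 929 gained and 372 lost, and of 276 tested genes 25 were higher and 93 lower. In 271 genes tested for both proteins, 36 were higher for TTP-AA and lower for TTP, and 0 the other way. On the scale of 3′UTR cDNAs these numbers became 2 and 3. Tnf had 53 and 727 cDNAs with TTP, a ratio of 4.64 (3.51 to 6.26), and thus differed from TTP-AA in being listed at rest. Ccl3 likewise had 54 and 244 cDNAs with TTP. Mdm2 had 78 and 149 cDNAs, a ratio of 0.646 (0.488 to 0.861). Hist1h4d fell with both proteins and had 70 and 16 cDNAs with TTP, a ratio of 0.0773 (0.0419 to 0.135).
Lamp2 was among the genes with opposite calls on both scales, with 16 cDNAs at 0 h and none at 1 h for TTP and none and 118 for TTP-AA. The lists of both proteins differ in depth and number of libraries as well, and the part of these in the differences was not tested.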

How the data were processed

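iCLIP libraries of GFP-TTP-AA cells (2 at 0 h, 3 at 1 h) were analysed from the site lists as deposited. Before deposit the authors demultiplexed the reads, collapsed PCR copies by random barcode, aligned with Bowtie to mm10 (version not given in the sources used here), counted cDNAs at the base just upstream of each insert, pooled the libraries of each group and retained sites under the false discovery threshold of iCount. The deposited score of a site is its number of unique cDNAs, with the strand as its sign. It is not normalised.

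Sites were annotated with bedtools 2.31.1 against GENCODE M21 (another release than that of the authors, same genome), with the order 3′UTR, coding sequence, 5′UTR, non-coding exon, intron, intergenic. Counting intervals (Wilson, Newcombe, exact conditional binomial) used scipy 1.17.1 in Python 3.11.15, and the call rule and rarefaction formula were tested on simulated data. cDNAs without replicate lists give no p-value. Named genes were the 10 protein-coding genes with the highest 3′UTR counts per list, the 10 called genes with the largest ratio in each direction, the 4 members of each gene list with most cDNAs, and Tnf, Cxcl2, Mdm2 and Zfp36; others are marked in the text. The comparison and the lists were chosen with earlier results of these data known. Some lists hold genes that the paper ranks among its top 3′UTR targets at 1 h, so their shares of calls are descriptions only. The 4 h lists entered only the count of sites in the series.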

Additional observations from a re-analysis of the deposited data

Results flagged for a closer look

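The change of the 3′UTR share from 0 h to 1 h differed between the mutant and the wild-type protein. It was 35.2 points with TTP-AA and -3.38 points with TTP, a difference of 38.6 points (95% interval 37.9 to 39.2, counting error only). Within the cDNAs of mRNA exons alone the difference was smaller, 14.4 points (13.2 to 15.6), and lay on the side of TTP, whose 3′UTR share there fell from 92.5% to 79.1%, a change of -13.4 points beside 0.960 points with TTP-AA. Depth and number of libraries of the lists differ between the proteins, and their part was not tested.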

How the results depend on the processing

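No paired analysis was possible because the lists are pooled over libraries and carry no replicate numbers, and for the same reason no library could be left out. The increase of the 3′UTR share of 35.2 points was 44.2 with each site counted once, 39.1 without the chromosome 17 locus, 36.8 without histone genes, 29.6 with sites of 2 or more cDNAs, and 0.960 within mRNA exons. Kept and lost genes were 339 and 27 at 5 or more cDNAs per gene, and lost genes 185 at the 0 h depth. Kept sites were 43.7% at the same nucleotide, 75.6% within 5 nt, 86.2% within 50 nt and 91.3% of sites with 2 or more cDNAs.
Genes called higher and lower numbered 59 and 272 by share of 3′UTR cDNAs, which turned the split of calls from 90.4% to 17.8% higher, 1808 and 6 by cDNAs per pooled library, and 127 and 26 at 4-fold. Lower calls alone moved to 78 at 5 or more cDNAs, 27 at 20 or more and 132 by fold alone. No gene called in 1 direction by the main rule became called in the other in any setting. Between the alternative settings calls did turn. Examples are Cox7a2, Rpl39 and Rrm2, lower by share of 3′UTR cDNAs and higher per pooled library.
AUUUA was found within 10 nt of 22.9% of gained, 25.2% of kept and 9.31% of lost sites, within 50 nt of 50.2%, 51.3% and 29.7%, and at 39.1% of gained sites weighted by cDNAs. The end density was 6.95 at 0 h and 1.91 at 1 h with the last 50 nt, 6.40 and 3.68 with the last 200 nt, and 4.08 at 1 h weighted by cDNAs.
Of 70 tested genes under the naming rule, 23 crossed a ratio of 1 with the share of 3′UTR cDNAs, 12 of them without a call on either scale. For the 11 with a call on at least 1 scale the ratios became 0.968 for Atp6v0b, 0.375 for Atp6v1a, 0.912 for Ccnd1, 0.835 for Cd14, 0.922 for Cdkn1a, 0.450 for Ctsb, 0.387 for Lars2, 0.835 for Ndufs1, 0.942 for Rel, 0.434 for Tmsb4x and 0.919 for Ybx3. Per pooled library 5 crossed 1, 3 of them with a call, at 2.55 for Cox7a2, 2.56 for Rpl39 and 3.17 for Rrm2, and 2 without, Pfn1 at 1.98 and Rps3 at 1.33. With sites in place of cDNAs 9 crossed 1, none with a call. Leaving out the chromosome 17 locus changed no call among the 70. Genes with few cDNAs at 0 h are limited by depth: from 3 cDNAs at 0 h a gene needed 33 at 1 h for a 2-fold ratio, and intervals treat cDNAs as independent.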
